A study of Mus musculus with 8 samples.

Results

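The 46 genes described here make up the machinery with which the endoplasmic reticulum (ER) takes in, folds, glycosylates, checks and ships secreted and membrane proteins, together with the sensors of the unfolded protein response. They were listed by symbol for their known functions, with earlier results of these data known, and were matched to the Ensembl identifiers of the deposited table. The table holds 15681 genes, 46 of them members. Of all genes, 12441 passed the filter on low values (at least 1 RPM in at least 2 libraries), and all 46 members were among them. RPM scales a gene's estimated reads to the effective size of its library (reads per M). By role there were 11 chaperones and their partners, 5 genes of oxidative folding, 7 of ER-associated degradation (ERAD), 11 of the translocon and signal peptidase, 4 of the oligosaccharyltransferase, 5 stress sensors and 3 of ER export.

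Secreted proteins such as antibodies enter the ER through the Sec61 channel, are glycosylated by the oligosaccharyltransferase, and fold with the help of chaperones and disulphide-forming enzymes. Proteins that fail to fold are sent back to the cytosol and degraded, which is ERAD. When unfolded proteins build up, the sensors IRE1 (gene Ern1), PERK (gene Eif2ak3) and ATF6 raise the transcription of this machinery and slow translation. B cells that become antibody-secreting plasma cells enlarge the ER, and the factor XBP1, made active by IRE1, is needed for that step.

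Mature B cells sorted from mouse spleen were cultured in RPMI 1640 with 15% FBS, activated with LPS at 20 μg/ml and IL-4 at 20 ng/ml, and harvested after 72 h for RNA sequencing. LPS is a bacterial lipid that activates B cells through a Toll-like receptor, and IL-4 is a cytokine that supports B cell activation. The 4 groups of 2 libraries each are Myc_KO (Myc knock-out), Max_KO (Max knock-out), double_KO (both) and control (heterozygous), all from mice 8 to 10 weeks old. The sources used here do not give the gene that is heterozygous in the controls, the allele or the driver of the deletion, and do not say whether libraries of a group are from different mice. The p-values below therefore measure the spread between these libraries, which may be technical.

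The labels of 2 libraries contradict each other, and groups here follow the title, as the columns of the table do. Myc_KO replicate 2 is described elsewhere in its labels as a double knock-out, and double_KO replicate 1 as a Myc knock-out. Libraries held 14.88 and 17.89 M estimated reads in Myc_KO, 17.91 and 17.68 M in Max_KO, 17.55 and 17.89 M in double_KO, and 17.54 and 17.2 M in the controls. Max, the dimer partner of Myc, was at 70.5 and 59.8 RPM in Myc_KO, 16.4 and 15.5 RPM in Max_KO, 28.6 and 31.2 RPM in double_KO, and 55.0 and 54.5 RPM in controls. Myc itself was at 48.3 and 55.8 RPM in Myc_KO, 192 and 176 RPM in Max_KO, 38.7 and 55.3 RPM in double_KO, and 111 and 116 RPM in controls, so reads on the targeted genes remained in the knock-outs. In the libraries with contradictory labels, the Max level went with the titles: Myc_KO replicate 2, at 59.8 RPM, was not below the controls, and double_KO replicate 1, at 28.6 RPM, was. The B cell markers Cd79a (878 to 1161 RPM over the 8 libraries), Cd79b, Ms4a1 and Pax5 were present in every library. The sum of 6 T cell markers was 89.3 to 106 RPM in Myc_KO, 168 to 239 in Max_KO, 121 to 148 in double_KO and 277 to 325 in controls. Most of it was Thy1, which fell in each knock-out (log2 changes -2.02 in Myc_KO, -0.67 in Max_KO, -1.29 in double_KO). Without Thy1 the controls were lowest, with a sum of the other 5 of 18.2 to 30.4 RPM in Myc_KO, 10.4 to 14.8 in Max_KO, 11.5 to 12.2 in double_KO and 1.99 to 2.18 in controls. The sum of 2 NK cell markers was 4.01 to 7.44 RPM in Myc_KO, 1.72 to 2.74 in Max_KO, 2.29 to 3.46 in double_KO and 0.0606 to 0.187 in controls. The sum of 5 myeloid markers was 23.5 to 33.1 RPM in Myc_KO, 16.0 to 17.1 in Max_KO, 14.6 to 24.0 in double_KO and 14.1 to 14.5 in controls. Within it Adgre1 (4.12 in Myc_KO, 2.85 in Max_KO, 2.91 in double_KO) and Itgam (0.95 in Myc_KO, 1.44 in Max_KO, 0.99 in double_KO) were called higher in each knock-out and Cd68 (-1.69 in Myc_KO, -1.58 in Max_KO, -0.91 in double_KO) lower. Their part in the results was not tested. In such bulk samples, fewer cells of a type and less RNA per cell cannot be told apart.

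The members did not all move in 1 direction in any of the knock-outs, but in Max_KO most were lower. The log2 change was negative in 35 of the 46 in Max_KO, in 24 in Myc_KO and in 21 in double_KO. In Myc_KO, 19 of 46 members passed the test against control, 7 higher and 12 lower, where 45.5% of all genes tested were called, 24.0% higher and 21.4% lower. In Max_KO, 23 members were called, 5 higher and 18 lower, beside a background of 39.8% (22.4% higher and 17.4% lower). In double_KO, 14 were called, 8 higher and 6 lower, beside 38.7% (21.9% higher and 16.8% lower). A call is an adjusted p under 0.05 from limma on the log2 values of all 8 libraries with Benjamini-Hochberg adjustment over the 12441 genes. As shares of the members, these are 41.3% in Myc_KO, 50% in Max_KO and 30.4% in double_KO. Their median log2 change was -0.04 in Myc_KO, -0.25 in Max_KO and 0.06 in double_KO, where the median over all genes tested was 0.00 in Myc_KO, 0.02 in Max_KO and 0.02 in double_KO. Members took 1.19% and 1.13% of the reads in Myc_KO, 1.09% and 0.956% in Max_KO, 1.18% and 1.28% in double_KO, and 1.14% and 1.11% in controls.

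All 3 comparisons share the 2 control libraries, and these decide part of the counts. Fits with 1 control left out called fewer members, and also fewer of all genes, in each of the 3 comparisons. Without control replicate 1 the median log2 change of the members was 0.012 in Myc_KO, -0.202 in Max_KO and 0.099 in double_KO. Without control replicate 2 it was -0.085 in Myc_KO, -0.292 in Max_KO and -0.015 in double_KO. Leaving out Myc_KO replicate 1 also lowered both counts in Myc_KO, where the median of the members was -0.063. With every library scaled to the same total, the median of all genes was 0.15 (Myc_KO), 0.13 (Max_KO) and 0.15 (double_KO) on the log2 scale. The members split into 14 higher and 7 lower in Myc_KO, 5 and 14 in Max_KO and 12 and 5 in double_KO. In Myc_KO 21 of the 46 members were called, beside 5780 of the 12441 genes. In Max_KO 19 were, beside 5171, and in double_KO 17, beside 5139. Of the calls in Myc_KO, 66.7% among members and 66.5% among all genes were higher. These shares were 26.3% and 66.7% in Max_KO and 70.6% and 68.9% in double_KO. Every direction given here is thus relative to the bulk of the genes. With groups taken from the descriptions, 17 members were called in Myc_KO (8 higher, 9 lower), 24 in Max_KO (4 higher, 20 lower) and 14 in double_KO (8 higher, 6 lower), and with the 6 undisputed libraries 15 in Myc_KO (6 and 9), 26 in Max_KO (5 and 21) and 11 in double_KO (7 and 4).

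The titles number the libraries in the 30s or the 40s, and what the numbers mean is not stated in the labels. In each knock-out replicate 1 is of the 30s and replicate 2 of the 40s, while both controls are of the 30s, so each comparison with control mixes the series on 1 side. Deviations of the 30s libraries from their group means correlated between knock-outs, across genes, at 0.31 to 0.37. With the series as a term in the model, 20 members were called in Myc_KO (8 higher, 12 lower), 28 in Max_KO (6 and 22) and 17 in double_KO (10 and 7). Of the 12441 genes, 6415 were called in Myc_KO, 5799 in Max_KO and 5666 in double_KO, more than the 5659, 4949 and 4817 without the term. Among the 30s libraries alone the median log2 change of the members was 0.004 in Myc_KO, -0.195 in Max_KO and -0.014 in double_KO. Over all genes it was 0.005, 0.027 and 0.026 in that order. There each knock-out is 1 library, assumed to vary like the controls, and the 40s hold no control.

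**Figure D1:**
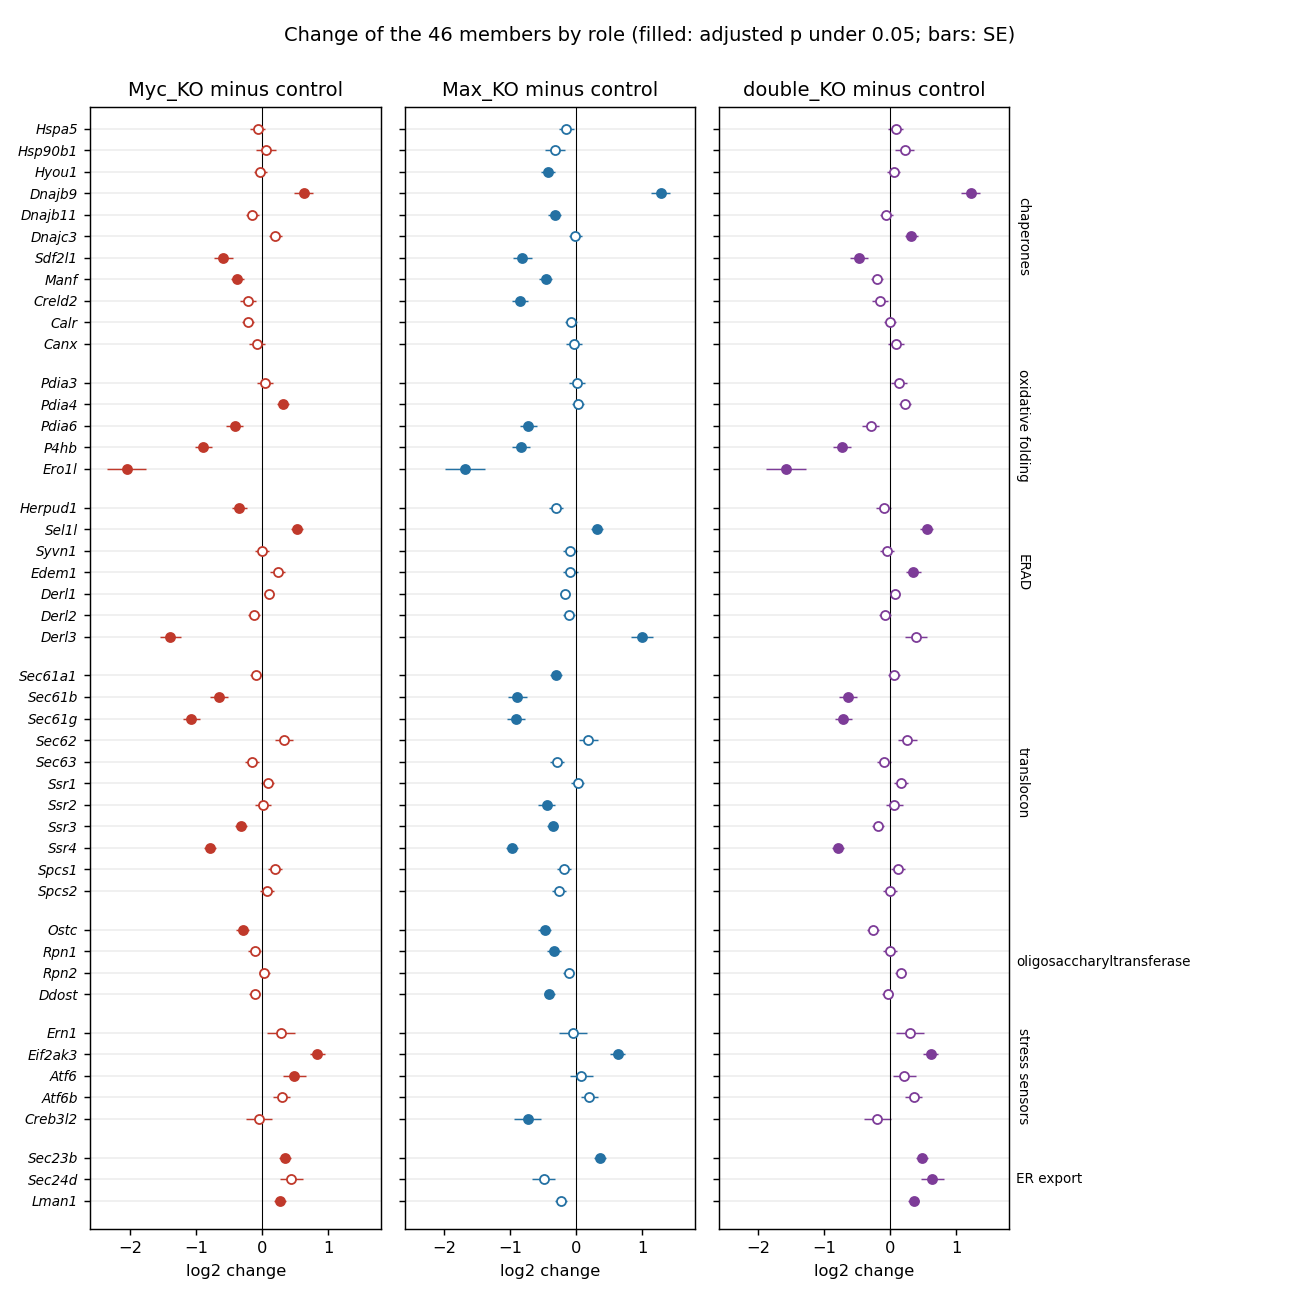
Log2 change against control (horizontal axis) of each of the 46 members (1 line each, grouped by role) in Myc_KO, Max_KO and double_KO, 2 libraries per group; bars are the standard error of the limma fit and filled points have an adjusted p under 0.05. Ero1l lies lowest in all 3 panels, at -2.05 in Myc_KO, -1.68 in Max_KO and -1.58 in double_KO, and Derl3 is at -1.39 in Myc_KO and 0.997 in Max_KO.

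The chaperones of the ER lumen bind folding proteins, and most of the abundant ones were not called in any knock-out. Per kilobase of exon, the highest members in controls were Calr at 456 RPM per kb, Hsp90b1 at 348 and Hspa5 at 244. Hspa5, the Hsp70 chaperone BiP that also holds the sensors inactive, had 1055 and 918 RPM in Myc_KO, 1006 and 854 RPM in Max_KO, 1070 and 1105 RPM in double_KO, and 1099 and 966 RPM in controls. Each knock-out range overlapped the control range, and the log2 changes (SE 0.11) were -0.07 in Myc_KO, -0.15 in Max_KO and 0.08 in double_KO. Hsp90b1, the Hsp90 of the ER (log2 changes 0.06 in Myc_KO, -0.32 in Max_KO and 0.22 in double_KO), Calr (-0.21 in Myc_KO, -0.07 in Max_KO and -0.01 in double_KO) and Canx (-0.07 in Myc_KO, -0.03 in Max_KO and 0.08 in double_KO), the lectin chaperones calreticulin and calnexin, did not pass the test either, although Hsp90b1 was at -0.51 in Max_KO and called (adjusted p = 0.0299) without Max_KO replicate 1. These highly expressed genes depended on the scaling: after quantile normalization, Hspa5 changed by 0.36 in Myc_KO and 0.47 in double_KO, Hsp90b1 by 0.68 in Myc_KO and 0.78 in double_KO, and Calr by 0.42 in Myc_KO and 0.51 in double_KO, with adjusted p-values (limma, Benjamini-Hochberg) from 0.00292 to 0.0324. Under the same scaling Calr changed by 0.39 in Max_KO (adjusted p = 0.0092).

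Dnajb9 was the chaperone partner that rose in all 3 comparisons. It encodes ERdj4, a J-domain protein that acts with BiP on unfolded proteins and on IRE1. Its level was 40.4 and 31.3 RPM in Myc_KO, 53.9 and 57.8 RPM in Max_KO, 52.1 and 54.5 RPM in double_KO, and 21.2 and 24.9 RPM in controls. Every knock-out library was above both controls, and the Max_KO and double_KO libraries were all above those of Myc_KO. Its log2 change was 0.63 ± 0.14 (SE) in Myc_KO (limma adjusted p = 0.00815), 1.28 in Max_KO (adjusted p = 0.000474) and 1.22 in double_KO (adjusted p = 0.000571). Without control replicate 1 the Myc_KO call was lost (adjusted p = 0.0697), and the other 2 calls passed under every alternative tried. The difference of Max_KO from Myc_KO was 0.65 (adjusted p = 0.0462).

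Creld2, a disulphide isomerase-like protein known as a target of the unfolded protein response, was lower in Max_KO. It stood at 104 and 107 RPM in Myc_KO, 73.4 and 63.0 RPM in Max_KO, 98.4 and 123 RPM in double_KO, and 124 and 122 RPM in controls. Both Max_KO libraries were below the other 6. The log2 change in Max_KO was -0.85 ± 0.12 (limma adjusted p = 0.00133), against -0.22 in Myc_KO (adjusted p = 0.183) and -0.16 in double_KO (adjusted p = 0.339). The Max_KO call held under every alternative. Max_KO differed from Myc_KO by -0.64 (adjusted p = 0.0305).

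Sdf2l1, which works with BiP and J-domain proteins, fell in all 3 comparisons, by 0.59 in Myc_KO, by 0.82 in Max_KO and by 0.48 in double_KO on the log2 scale (limma adjusted p = 0.0107, 0.00291 and 0.0285 in that order). Its level was 104 and 85.0 RPM in Myc_KO, 91.2 and 69.8 RPM in Max_KO, 101 and 102 RPM in double_KO, and 146 and 136 RPM in controls, with no overlap between any knock-out and control. The Max_KO call held throughout. The Myc_KO call was lost without control replicate 1 (adjusted p = 0.0763) or without Myc_KO replicate 2 (0.0625), and the double_KO call when any one of its own or the control libraries was left out (0.0848 to 0.149). Manf, a secreted ER stress protein, fell in Myc_KO (-0.37, adjusted p = 0.014) and Max_KO (-0.46, adjusted p = 0.00636); in double_KO it was at -0.20. Both Manf calls were lost without control replicate 1, with adjusted p = 0.107 and 0.0582, and the Myc_KO call also without Myc_KO replicate 1 (0.0676). Manf shares exon bases with Dcaf1 on the opposite strand and Rbm15b on the same strand, and the sources used here do not give the strand setting of the counting.

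Of the remaining chaperone genes, the Hsp70 relative Hyou1 (-0.42, limma adjusted p = 0.0127) and the J-domain protein Dnajb11 (-0.32, adjusted p = 0.0296) fell in Max_KO. Without control replicate 1 both calls were lost (adjusted p = 0.0804 and 0.195), as they were without Max_KO replicate 2 (0.0685 and 0.165). For Hyou1 this was also so without control replicate 2 (0.0549). Dnajc3, a J-domain protein also known as p58IPK and an inhibitor of PERK, rose in double_KO by 0.32 (adjusted p = 0.037), a call lost when any of the 2 double_KO or 2 control libraries was left out (adjusted p = 0.0677 to 0.201). Dnajb11 was at -0.15 in Myc_KO and -0.06 in double_KO, Hyou1 at -0.03 in Myc_KO and 0.05 in double_KO, and Dnajc3 at 0.20 in Myc_KO and -0.02 in Max_KO. In all, Myc_KO had 1 higher and 2 lower chaperones, Max_KO 1 higher and 5 lower, and double_KO 2 higher and 1 lower.

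Promoter sequence was compared with these changes, since the ER stress response element (ERSE) is the known binding element of ATF6 and XBP1. RefSeq windows on GRCm38.p6 from 250 bases before to 50 bases after the gene start were found for 38 of the 46 members. The ERSE, searched on both strands as CCAAT and CCACG with 9 bases between them, was in 9 of these 38 windows (23.7%) and in 37 of the 27025 windows of all genes (0.137%). The 9 genes were Calr, Canx, Creld2, Derl3, Dnajc3, Hsp90b1, Hspa5, Pdia6 and Syvn1. The following stretches, read on the strand of the motif with its fixed letters in capitals, show the same element in genes that differed in their values: Hspa5 and Calr were not called, Creld2 and Pdia6 fell in Max_KO, and Derl3 moved in opposite directions in Myc_KO and Max_KO.
Hspa5 (chr2:34772017-34772051, + strand): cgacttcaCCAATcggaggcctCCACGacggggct
Calr (chr8:84847067-84847101, + strand): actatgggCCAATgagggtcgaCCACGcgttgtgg
Creld2 (chr15:88819512-88819546, - strand): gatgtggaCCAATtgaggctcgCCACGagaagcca
Pdia6 (chr12:17266483-17266517, + strand): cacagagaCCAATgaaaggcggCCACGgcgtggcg
Derl3 (chr10:75893234-75893268, - strand): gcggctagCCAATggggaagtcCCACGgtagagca

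Among the 9 members with an ERSE, the median log2 change was -0.07 in Myc_KO (0 higher, 2 lower), -0.10 in Max_KO (1 higher, 2 lower) and 0.08 in double_KO (1 higher, 0 lower). Among the 29 windows without one, it was 0.03 in Myc_KO (5 higher, 8 lower), -0.26 in Max_KO (4 higher, 11 lower) and 0.00 in double_KO (6 higher, 6 lower). The related element ERSE-II (ATTGG and CCACG with 1 base between) was in Dnajb11 and Herpud1, 5.26% of the members and 0.0444% of all windows. TGACGTGG, the core of the element UPRE bound by XBP1, was in 1 member, Sec24d (2.63% against 0.714%). CACGTG, the E-box that MYC-MAX dimers bind, was in 6 members, Atf6b, Calr, Derl3, Dnajb9, Sec62 and Ssr1, 15.8% of the members against 8.09% of all windows. A match is a description of the letters and shows no binding.

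Oxidative folding held the member with the steepest fall. Ero1l, which gives disulphide isomerases their oxidising power (human ERO1A), was at 54.5 and 47.7 RPM in Myc_KO, 98.3 and 44.2 RPM in Max_KO, 66.7 and 75.3 RPM in double_KO, and 203 and 221 RPM in controls. All 6 knock-out libraries were below both controls, and the 2 Max_KO libraries differed from each other more than those of any other group. The log2 change was -2.05 ± 0.30 in Myc_KO (limma adjusted p = 0.00105), -1.68 in Max_KO (adjusted p = 0.00347) and -1.58 in double_KO (adjusted p = 0.0047). These calls held under every alternative tried.

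P4hb, protein disulphide isomerase itself, was at 343 and 310 RPM in Myc_KO, 393 and 290 RPM in Max_KO, 350 and 373 RPM in double_KO, and 618 and 590 RPM in controls. Again no knock-out library reached the controls. Its log2 changes, -0.89 in Myc_KO, -0.84 in Max_KO and -0.74 in double_KO (limma adjusted p = 0.00119, 0.00215 and 0.00374 in that order; SE 0.14), also held throughout. Pdia6, another isomerase of that family, fell by 0.41 in Myc_KO (adjusted p = 0.0295) and by 0.73 in Max_KO (adjusted p = 0.00318), and was at -0.30 in double_KO (adjusted p = 0.095). Leaving out any of the 2 Myc_KO or 2 control libraries ended the Myc_KO call of Pdia6 (adjusted p = 0.0525 to 0.156), while its Max_KO call held. Pdia4 rose by 0.32 in Myc_KO (adjusted p = 0.0249), a call lost without Myc_KO replicate 1 (0.101) or either control (0.0727 and 0.123). Pdia3, the isomerase that works with calnexin and calreticulin, was not called and lay at 0.05 in Myc_KO, 0.02 in Max_KO and 0.12 in double_KO. Hence 1 gene of this role rose and 3 fell in Myc_KO, 3 fell in Max_KO, and 2 fell in double_KO, and no other gene of the role was called.

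**Figure D2:**
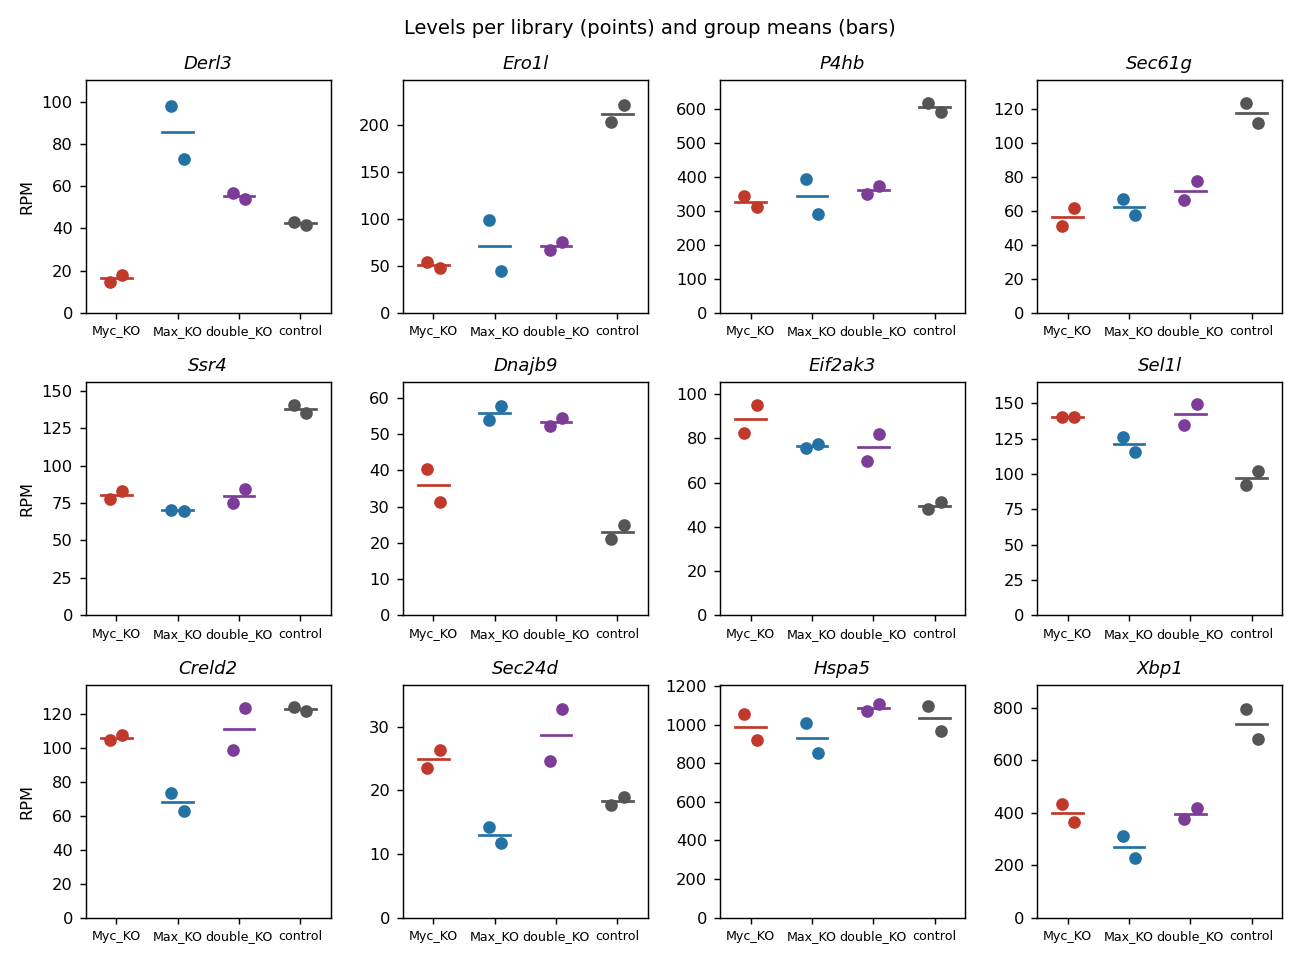
Level in RPM (vertical axis, linear, from 0) of 11 members and of Xbp1, which is not a member, in Myc_KO, Max_KO, double_KO and control; points are single libraries and bars group means (n = 2). Derl3 is lowest in Myc_KO (14.4 and 18.0) and highest in Max_KO (98.1 and 72.8), while Ero1l, P4hb, Sec61g, Ssr4 and Xbp1 lie below control in all 6 knock-out libraries.

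The ERAD gene Derl3 was the member in which the single knock-outs went opposite ways. It encodes Derlin-3, one of 3 membrane proteins that help carry misfolded proteins out of the ER and the one known for high expression in secretory cells. Its level was 14.4 and 18.0 RPM in Myc_KO, 98.1 and 72.8 RPM in Max_KO, 56.7 and 54.1 RPM in double_KO, and 42.95 and 41.7 RPM in controls. Each group's 2 values stood apart from those of every other group, in the order Myc_KO, control, double_KO and Max_KO. The log2 change was -1.39 ± 0.16 in Myc_KO (limma adjusted p = 0.000329), 0.997 in Max_KO (adjusted p = 0.00217) and 0.39 in double_KO (adjusted p = 0.0897). The change in double_KO was called with the same-total scaling (0.51, adjusted p = 0.0362) and with only the groups compared (adjusted p = 0.0171). Max_KO was 2.39 above Myc_KO (adjusted p = 0.000654), and double_KO was 1.78 above Myc_KO (adjusted p = 0.00664).

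The Derl3 calls differ with the group labels of the 2 disputed libraries, whose Max levels, given above, go with the titles used here. With groups from the descriptions, the Myc_KO group holds libraries of 56.7 and 14.4 RPM and the double_KO group libraries of 54.1 and 18.0 RPM, and the adjusted p became 0.507 in Myc_KO, 0.247 in Max_KO, 0.416 for Max_KO against Myc_KO and 0.964 for double_KO against Myc_KO. Without double_KO replicate 1, the last of these comparisons had an adjusted p of 0.0594. Without both disputed libraries, the single knock-outs still passed against control and against each other.

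Derl1 and Derl2, the broadly expressed relatives, were not called against control. Derl1 lay at 0.10 in Myc_KO, -0.16 in Max_KO and 0.07 in double_KO, and Derl2, which overlaps Mis12 on the opposite strand, at -0.13 in Myc_KO, -0.11 in Max_KO and -0.08 in double_KO. The letters upstream of Derl3 hold both an ERSE and an E-box within 250 bases (chr10:75893148-75893397, GRCm38.p6, + strand; capitals mark CACGTG and the fixed letters of the ERSE, here read from the other strand).
Derl3 upstream: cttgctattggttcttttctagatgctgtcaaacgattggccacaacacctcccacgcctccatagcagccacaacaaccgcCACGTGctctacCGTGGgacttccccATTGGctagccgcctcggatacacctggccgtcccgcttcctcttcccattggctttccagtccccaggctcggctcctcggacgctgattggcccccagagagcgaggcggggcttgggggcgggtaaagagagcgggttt
Dnajb9, the member with the highest log2 change in Max_KO, has an E-box and no ERSE in the same interval (chr12:44210069-44210318, - strand; capitals mark CACGTG).
Dnajb9 upstream: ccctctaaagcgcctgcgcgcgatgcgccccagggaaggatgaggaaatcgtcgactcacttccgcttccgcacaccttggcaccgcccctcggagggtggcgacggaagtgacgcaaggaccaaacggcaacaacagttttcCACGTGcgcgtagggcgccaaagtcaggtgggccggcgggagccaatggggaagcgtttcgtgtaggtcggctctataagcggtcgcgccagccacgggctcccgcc

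Sel1l rose in each comparison. It encodes the partner of the ubiquitin ligase HRD1 (gene Syvn1) at the centre of ERAD. Sel1l had 140 and 140 RPM in Myc_KO, 126 and 116 RPM in Max_KO, 135 and 150 RPM in double_KO, and 92.3 and 102 RPM in controls. All knock-out libraries were above both controls. The log2 changes (SE 0.09) were 0.53 in Myc_KO, 0.32 in Max_KO and 0.55 in double_KO (limma adjusted p = 0.00255, 0.0282 and 0.00284 in that order). The Max_KO call was lost without Max_KO replicate 1 (0.127) or either control (0.176 and 0.0501).

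Syvn1 itself was not called (0.00 in Myc_KO, -0.10 in Max_KO and -0.06 in double_KO) and has exon bases shared with Mrpl49 on the opposite strand. Herpud1, a stress-induced ERAD adaptor, was lower in Myc_KO by 0.34 (limma adjusted p = 0.0349), a call lost without Myc_KO replicate 1 or either control. It was at -0.31 in Max_KO (adjusted p = 0.0585) and -0.10 in double_KO. Several alternatives called it lower in Max_KO, among them quantile normalization (-0.38, adjusted p = 0.0307) and the series as a term (-0.40, adjusted p = 0.00469). Edem1, a mannosidase-like lectin of ERAD, was higher in double_KO by 0.35 (adjusted p = 0.0447), with 386 and 488 RPM in double_KO and 337 and 347 RPM in controls. That call was lost without double_KO replicate 2 (0.256) or either control (0.178 and 0.126), and narrowly without either Myc_KO library (0.0537 each) or with the series of title numbers as a term (0.0589). Edem1 was at 0.24 in Myc_KO and -0.09 in Max_KO. Of the 7 ERAD members, 1 rose and 2 fell in Myc_KO, and 2 rose in each of Max_KO and double_KO.

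At the translocon no member was called higher with all 8 libraries in groups by title, the deposited scaling and no added term. Ssr4, Sec61g and Sec61b fell in each knock-out. Ssr4, a subunit of the translocon-associated TRAP complex, had 77.5 and 83.1 RPM in Myc_KO, 70.6 and 69.7 RPM in Max_KO, 75.3 and 84.5 RPM in double_KO, and 141 and 135 RPM in controls. The knock-out libraries lay between 69.7 and 84.5 RPM, all below the controls. Its log2 change (SE 0.09) was -0.78 in Myc_KO, -0.98 in Max_KO and -0.79 in double_KO, and it had limma adjusted p-values of 0.000325, 0.000251 and 0.00048 in that order, the lowest among the members in each of the 3 comparisons. Sec61g, the gamma subunit of the Sec61 channel, had 50.9 and 61.7 RPM in Myc_KO, 67.1 and 57.9 RPM in Max_KO, 66.5 and 77.6 RPM in double_KO, and 124 and 112 RPM in controls. No knock-out value reached the controls, and the changes were -1.07 in Myc_KO, -0.92 in Max_KO and -0.71 in double_KO (SE 0.13; adjusted p = 0.000475, 0.0014 and 0.00421 in that order). The calls of both genes held under every alternative.

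Sec61b, the beta subunit, fell by 0.65 in Myc_KO, by 0.89 in Max_KO and by 0.65 in double_KO (limma adjusted p = 0.00631, 0.00193 and 0.00774 in that order). It had 80.7 and 80.1 RPM in Myc_KO, 71.2 and 64.8 RPM in Max_KO, 71.7 and 90.2 RPM in double_KO, and 141 and 113 RPM in controls, again without overlap. Without control replicate 1, the higher of the controls, its Myc_KO and double_KO calls were lost (adjusted p = 0.0584 and 0.0688). Sec61a1, which forms the pore, was at -0.10 in Myc_KO and 0.05 in double_KO and fell by 0.31 in Max_KO (adjusted p = 0.0266), a call that leaving out any of the 2 Max_KO or 2 control libraries ended (0.0588 to 0.153).

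Ssr3 fell in Myc_KO (-0.32, limma adjusted p = 0.0209) and Max_KO (-0.36, adjusted p = 0.0143) and was at -0.19 in double_KO. It had 299 and 302 RPM in Myc_KO, 297 and 287 RPM in Max_KO, 302 and 356 RPM in double_KO, and 374 and 374 RPM in controls. The Myc_KO call was lost when any 1 of its own or the control libraries was left out. The Max_KO call was lost without Max_KO replicate 2 or either control. Each of these fits left 1 library in a group. Ssr2 fell in Max_KO by 0.45 (adjusted p = 0.0236; 0.121 without Max_KO replicate 2 and 0.169 without control replicate 1) and was at 0.01 in Myc_KO and 0.06 in double_KO. Ssr1, the alpha subunit of TRAP, was at 0.09 in Myc_KO, 0.02 in Max_KO and 0.16 in double_KO. Sec62 and Sec63, which serve post-translational import, and the signal peptidase subunits Spcs1 and Spcs2 were not called, with log2 changes between -0.29 and 0.33. Sec62, at 0.33 in Myc_KO (adjusted p = 0.0866), was called higher there with groups from the descriptions (0.40, adjusted p = 0.0337), with the series as a term (0.44, adjusted p = 0.00974) and without Myc_KO replicate 2 (0.53, adjusted p = 0.018). Sec63, at -0.29 in Max_KO, was called lower there under several alternatives. Among them were groups from the descriptions (adjusted p = 0.042), quantile normalization (-0.38, adjusted p = 0.0218) and the series as a term (adjusted p = 0.0205). In all, Myc_KO had 4 lower translocon members, Max_KO 6 and double_KO 3. With the same-total scaling, 2 of the 11 were called higher and 3 lower in Myc_KO.

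The oligosaccharyltransferase attaches N-glycans to proteins entering the ER. Its subunit Ostc had 95.0 and 95.8 RPM in Myc_KO, 85.8 and 82.4 RPM in Max_KO, 90.3 and 105 RPM in double_KO, and 122 and 112 RPM in controls, with both controls above all others. The log2 changes were -0.29 in Myc_KO (limma adjusted p = 0.0378), -0.48 in Max_KO (adjusted p = 0.00593) and -0.26 in double_KO (adjusted p = 0.0611). The Myc_KO call was lost without any of its own or the control libraries (0.0697 to 0.205) and the Max_KO call without control replicate 1 (0.0555). Ddost fell by 0.41 in Max_KO (adjusted p = 0.00643; 0.0545 without control replicate 1) and Rpn1 by 0.34 (adjusted p = 0.0292), a call lost without Max_KO replicate 2 (0.165) or either control (0.149 and 0.0862). Rpn2 was not called and lay at 0.03 in Myc_KO, -0.11 in Max_KO and 0.16 in double_KO. Thus 1 of the 4 subunits fell in Myc_KO and 3 in Max_KO, and in double_KO 0 were called with limma, where Ostc alone had an unadjusted p under 0.05. None of the 3 Max_KO calls held without control replicate 1. Between Max_KO and Myc_KO 0 of the 4 were called with limma (1 with an unadjusted p under 0.05).

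Among the sensors, Eif2ak3 rose in every knock-out. It encodes PERK, the kinase that slows translation under ER stress. Its level was 82.6 and 95.3 RPM in Myc_KO, 75.6 and 77.5 RPM in Max_KO, 69.9 and 82.0 RPM in double_KO, and 48.1 and 51.1 RPM in controls. All 6 knock-out libraries were above the controls. It rose by 0.84 in Myc_KO, by 0.63 in Max_KO and by 0.61 in double_KO (SE 0.11; limma adjusted p = 0.000655, 0.00333 and 0.00381 in that order), and these calls held under every alternative tried.

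Ern1, which encodes IRE1 alpha, was not called (0.28 in Myc_KO, -0.04 in Max_KO and 0.30 in double_KO, SE 0.21). It was one of the lowest members per length, at 2.38 RPM per kb in controls. Atf6 rose in Myc_KO by 0.49 (limma adjusted p = 0.0463), with 108 and 137 RPM in Myc_KO and 86.9 and 86.1 RPM in controls, and was at 0.08 in Max_KO and 0.21 in double_KO. That call was lost without Myc_KO replicate 2 (0.23) or either control (0.154 and 0.153), with groups from the descriptions (0.415) and with the series as a term (0.0717). Its relative Atf6b was at 0.30 in Myc_KO, 0.20 in Max_KO and 0.36 in double_KO, not called. Without Myc_KO replicate 2 it was called higher in Myc_KO (0.44, adjusted p = 0.0436) and double_KO (adjusted p = 0.0422), as it was with the series as a term (0.42 in Myc_KO, 0.32 in Max_KO, 0.48 in double_KO; adjusted p = 0.00204, 0.00864 and 0.00148 in that order). Creb3l2, a membrane-bound factor cleaved like ATF6, had 12.6 and 11.2 RPM in Max_KO and 20.2 and 19.5 RPM in controls, a fall of 0.74 (adjusted p = 0.0207). It was lost as a call without Max_KO replicate 2 (0.0949) or either control (0.109 and 0.0836), and lay at -0.05 in Myc_KO and -0.20 in double_KO. Of the 5 sensors, Myc_KO had 2 higher, Max_KO 1 higher and 1 lower, and double_KO 1 higher.

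The 3 genes of ER export rose in Myc_KO or double_KO, and 2 of them were lower in Max_KO than in Myc_KO. Sec23b, a coat subunit of the COPII vesicles that leave the ER, had 120 and 106 RPM in Myc_KO, 116 and 111 RPM in Max_KO, 126 and 120 RPM in double_KO, and 91.1 and 85.7 RPM in controls. All knock-out values were above the controls, and the changes were 0.35 in Myc_KO, 0.36 in Max_KO and 0.48 in double_KO (SE 0.09; limma adjusted p = 0.0131, 0.0139 and 0.00426 in that order). The Myc_KO call was lost without Myc_KO replicate 1 (0.0753) or control replicate 2 (0.0836), and the Max_KO call without Max_KO replicate 1 (0.0575) or control replicate 2 (0.0901). Sec24d, the COPII subunit that selects cargo, had 23.5 and 26.3 RPM in Myc_KO, 14.3 and 11.8 RPM in Max_KO, 24.7 and 32.9 RPM in double_KO, and 17.7 and 18.9 RPM in controls. The Max_KO values were the lowest of the 4 groups and did not overlap any other.

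Sec24d rose in double_KO by 0.64 (limma adjusted p = 0.0214), a call lost without double_KO replicate 2 or either control. It was at 0.44 in Myc_KO (adjusted p = 0.0702) and -0.50 in Max_KO (adjusted p = 0.0535). Several alternatives called it lower in Max_KO, among them groups from the descriptions (adjusted p = 0.0389), quantile normalization (0.0462) and the series as a term (0.034). In Myc_KO it was called higher with the same-total scaling (0.59, adjusted p = 0.0272) and with only the groups compared (adjusted p = 0.0376). Lman1, the cargo receptor ERGIC-53 for glycoproteins, had 102 and 99.8 RPM in Myc_KO, 72.7 and 70.3 RPM in Max_KO, 101 and 113 RPM in double_KO, and 86.0 and 81.8 RPM in controls. Both Max_KO libraries lay below the controls, and the Myc_KO and double_KO libraries above them. Lman1 rose by 0.27 in Myc_KO (adjusted p = 0.0355) and 0.35 in double_KO (adjusted p = 0.0145), and was at -0.23 in Max_KO (adjusted p = 0.0671). Its Myc_KO call was lost when any Myc_KO or control library was left out (0.0824 to 0.162), and the double_KO call without double_KO replicate 2 (0.0937) or either control (0.0555 and 0.0895).

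Between the single knock-outs, 5 members differed: Derl3 and Dnajb9 were higher in Max_KO than in Myc_KO, and Creld2, Sec24d and Lman1 were lower, beside a background of 4.13% of all genes (2.44% higher and 1.69% lower). The difference was 2.39 for Derl3, 0.65 for Dnajb9, -0.64 for Creld2, -0.94 for Sec24d (limma adjusted p = 0.0281) and -0.50 for Lman1 (adjusted p = 0.0229). The median difference over the 46 members was -0.20, against 0.01 over all genes. With any one of the Myc_KO, Max_KO or control libraries left out, or without both disputed libraries, 1 or 2 members were called, and with groups from the descriptions 0 were called by limma, where 19 members had an unadjusted p under 0.05. Derl3 was the one that passed in each leave-one-out fit. Of all genes, 13 were called with groups from the descriptions, and 11.4% had an unadjusted limma p under 0.05. With the series of title numbers as a term 10 members were called, beside 1303 of the 12441 genes, against 514 without the term. The 10 were the same 5 and, lower in Max_KO, Creb3l2, Ddost, Derl1, Hyou1 and Pdia4 (limma adjusted p = 0.0276 to 0.0482).

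**Figure D3:**
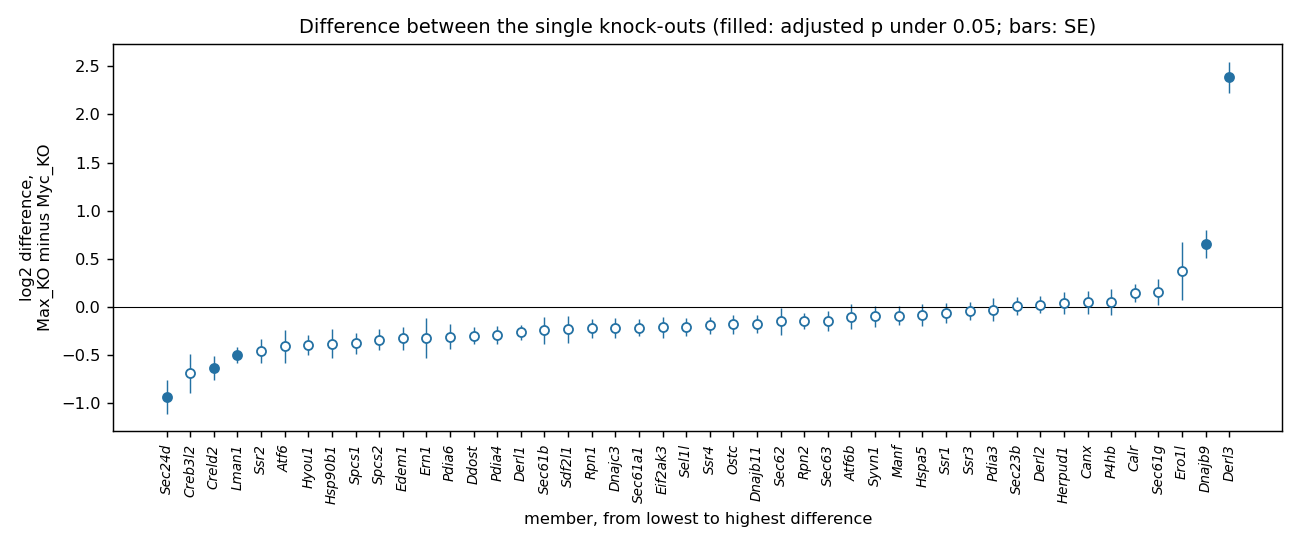
Log2 difference of Max_KO minus Myc_KO (vertical axis) for the 46 members, ordered from lowest to highest; bars are standard errors of the limma fit and filled points have an adjusted p under 0.05. Sec24d (-0.94), Creld2 (-0.64) and Lman1 (-0.50) are called below 0, and Dnajb9 (0.65) and Derl3 (2.39) above it.

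Against Myc_KO, double_KO differed in 1 member, Derl3, beside 0.458% of all genes (0.418% higher). Against Max_KO it differed in 0 members by limma, beside 0.0402% of all genes (0.0322% higher and 0.00804% lower). An unadjusted limma p under 0.05 was found in 22 members, beside 6.04% of all genes. Of the 46 values, 43 were positive (median 0.23, all genes 0.00). The highest of these differences were Sec24d at 1.13 (adjusted p = 0.127), Creld2 at 0.70 (adjusted p = 0.161) and Lman1 at 0.58 (adjusted p = 0.127). With the series of title numbers as a term, Sec24d (limma adjusted p = 0.0499) and Lman1 (limma adjusted p = 0.0412) were called higher in double_KO than in Max_KO. Among the 30s libraries alone, 1 per knock-out, the median of the members was 0.118, and Derl3 (-0.79) and Ero1l (-0.56) were lower in double_KO. Without replicate 2 of double_KO or of Max_KO the median was 0.158 and 0.177 in that order. Without replicate 1 of double_KO or of Max_KO it was 0.319 and 0.310. An adjusted p above the threshold does not show that double_KO and Max_KO were alike.

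The interaction asks whether the change in double_KO equals the sum of the changes in Myc_KO and Max_KO. It was called in 18 members, 16 positive and 2 negative, beside 27.4% of all genes, 12.4% positive and 15.0% negative. Its median was 0.33 over the members and 0.00 over all genes. Among the positive values were those of genes lowered in each knock-out: Ero1l at 2.16 ± 0.43 (limma adjusted p = 0.00863), Sec61g at 1.28 (adjusted p = 0.00279), P4hb at 0.99 (adjusted p = 0.00781) and Ssr4 at 0.97 (adjusted p = 0.00193). The negative values were those of Eif2ak3 at -0.85 (adjusted p = 0.00648) and Dnajb9 at -0.70 (adjusted p = 0.0362), both of which rose in each knock-out. The interaction subtracts both single changes from the change in double_KO, so the control libraries enter it with the same weight as those of each other group. Without control replicate 1 the median interaction of the members was 0.267, and without control replicate 2 it was 0.403. Without Max_KO replicate 2 it was 0.285, and without double_KO replicate 2 it was 0.267. Each of these fits called fewer members, and also fewer of all genes. With the same-total scaling the interaction was called in 12 of the 46 members, 9 positive and 3 negative. Of the 12441 genes, 3640 were called under that scaling, 1164 positive and 2476 negative. The median was 0.193 over the members and -0.131 over all genes.

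The change of a gene was related to its exonic length. Over the 46 members, Spearman's rho between exonic length and log2 change was 0.42 in Myc_KO, 0.29 in Max_KO and 0.32 in double_KO, and over 12413 genes it was 0.29 in Myc_KO, 0.31 in Max_KO and 0.31 in double_KO. These are correlations across genes of the same libraries, which are not independent replicates. The 15 shortest members (1108 to 2880 bases, among them Sdf2l1, Sec61b, Creld2, Derl3, Sec61g and P4hb) had a median of -0.22 in Myc_KO with 2 higher and 7 lower, -0.41 in Max_KO with 2 higher and 8 lower, and -0.04 in double_KO with 1 higher and 4 lower. Over all genes up to 2880 bases the median was -0.26 in Myc_KO, -0.23 in Max_KO and -0.22 in double_KO. The 15 longest members (5285 bases and above, among them Eif2ak3, Sel1l, Sec23b, Atf6 and Ero1l) had a median of 0.24 in Myc_KO, of -0.11 in Max_KO and 0.21 in double_KO, and all genes of at least 5285 bases 0.25 in Myc_KO, 0.24 in Max_KO and 0.24 in double_KO. The fall of the short genes Sec61b and Sec61g and the rise of the long genes Eif2ak3, Sel1l and Sec23b went with the length trend of all genes, and the part of length in them was not tested. Ero1l is among the longest members and fell most, and Dnajb9 is short and rose.

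**Figure D4:**
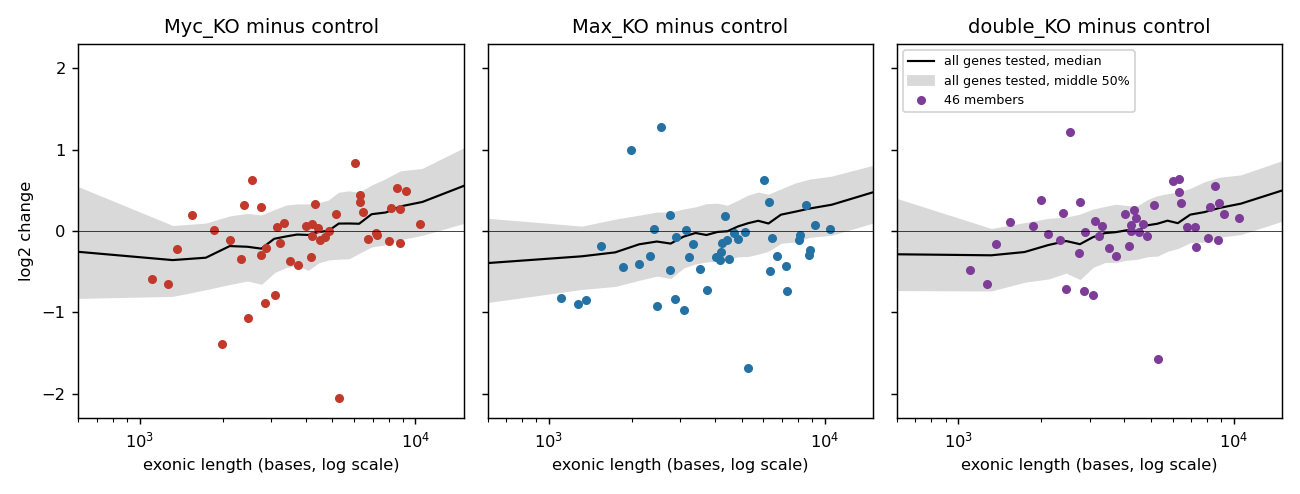
Log2 change against control (vertical axis) by exonic length in bases (horizontal axis, log scale) in Myc_KO, Max_KO and double_KO; points are the 46 members, the line is the median and the band the middle 50% of all genes tested in bins of length. The line is below 0 for short genes and above 0 for long ones in each panel, and Ero1l lies below the band in all 3 panels, Derl3 below it in Myc_KO and above it in Max_KO, and Dnajb9 above it in all 3.

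Outside the 46 members, 95 other genes of the same pathways were listed and 94 tested. Of these 94, 21 were higher and 19 lower in Myc_KO (median -0.01), 12 higher and 19 lower in Max_KO (median -0.08), and 20 higher and 13 lower in double_KO (median 0.07). As shares of the 94, calls were 42.6% in Myc_KO, 33% in Max_KO and 35.1% in double_KO. Of all genes tested, 45.5% were called in Myc_KO, 39.8% in Max_KO and 38.7% in double_KO. Xbp1, the transcription factor activated by IRE1, had 431 and 364 RPM in Myc_KO, 310 and 225 RPM in Max_KO, 375 and 417 RPM in double_KO, and 793 and 681 RPM in controls. It fell in each, by 0.89 in Myc_KO, 1.48 in Max_KO and 0.89 in double_KO (limma adjusted p = 0.0026, 0.000402 and 0.00337 in that order); values per gene do not separate its spliced form. Atf4, the factor translated when PERK is active, was at -0.11 in Myc_KO, -0.05 in Max_KO and 0.11 in double_KO, and Ddit3 (CHOP), its stress-induced target, at -0.31 in Myc_KO, -0.50 in Max_KO and -0.63 in double_KO; neither was called.

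Of these genes, Ero1lb and Herpud2 rose while the related members Ero1l and Herpud1 had negative changes. Others moved with members of the same role, as Sec31a and Sec16a did with Sec23b. Ero1lb, the second ER oxidase gene, rose by 0.93 in Myc_KO, 0.84 in Max_KO and 0.94 in double_KO (limma adjusted p = 0.000153, 0.000402 and 0.000263 in that order), while Ero1l fell. Its level was 167 and 185 RPM in Myc_KO, 156 and 174 RPM in Max_KO, 183 and 172 RPM in double_KO, and 92.6 and 92.1 RPM in controls. In ERAD, Edem3 rose by 1.38 in Myc_KO, 0.80 in Max_KO and 1.26 in double_KO (adjusted p = 6.9e-05, 0.000908 and 0.000206 in that order) and Herpud2 by 1.19 in Myc_KO, 1.02 in Max_KO and 0.98 in double_KO (adjusted p = 0.000534, 0.0015 and 0.00176 in that order). In ER export, the coat subunit Sec31a rose by 0.70 in Myc_KO, 0.62 in Max_KO and 0.74 in double_KO and the scaffold Sec16a by 0.67 in Myc_KO, 0.36 in Max_KO and 0.62 in double_KO, while Preb, the exchange factor that starts coat assembly, was lower (-0.62 in Myc_KO, -0.71 in Max_KO and -0.59 in double_KO). In folding, the prolyl isomerase Ppib (-0.72 in Myc_KO, -0.84 in Max_KO and -0.69 in double_KO) and Erp29 (-0.89 in Myc_KO, -0.71 in Max_KO and -0.70 in double_KO) fell, and of the oligosaccharyltransferase Krtcap2 (-0.79 in Myc_KO, -0.88 in Max_KO and -0.74 in double_KO) and Tmem258 (-0.50 in Myc_KO, -0.56 in Max_KO and -0.41 in double_KO). Each of these passed the test in all 3 comparisons (adjusted p at most 0.0119).

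Levels of plasma cell markers differed between the groups. The sum of 6 such markers was 1082 to 1094 RPM in Myc_KO, 726 to 731 RPM in Max_KO, 865 to 1237 RPM in double_KO and 1257 to 1364 RPM in controls, with Tnfrsf17 at or near 0 in every library. Jchain, the joining chain of secreted IgM, was at 281 and 260 RPM in Myc_KO, 37.3 and 35.4 RPM in Max_KO, 137 and 261 RPM in double_KO, and 210 and 255 RPM in controls, and fell in Max_KO (-2.67, limma adjusted p = 0.000254). Mzb1, an ER chaperone of B cells, fell by 0.63 in Myc_KO, by 1.10 in Max_KO and by 0.72 in double_KO (adjusted p = 0.00344, 0.000399 and 0.00234 in that order), and Prdm1, Irf4 and Sdc1 were not called against control. Between knock-outs, Jchain (-2.89, adjusted p = 0.00198) and Sdc1 (-1.89, adjusted p = 0.0284) were lower in Max_KO than in Myc_KO, and Jchain was higher in double_KO than in Max_KO (2.38, adjusted p = 0.0294). Of the B cell markers, Ms4a1 (1.56 in Myc_KO, 1.32 in Max_KO and 1.34 in double_KO) and Pax5 (1.68 in Myc_KO, 1.63 in Max_KO and 1.61 in double_KO) rose with adjusted p-values of at most 0.000467. The part of these shifts in the values of the members was not tested.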

How the data were processed

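RNA was measured in 8 libraries. The authors deposited 1 table of log2 values for 15681 genes; the values show that each is a log2 of estimated reads plus 0.5, scaled (RPM) to an effective library size. They were used as they are, although the design had allowed for linear values. Per the submitters' processing notes, the tools were CASAVA 1.8, cutadapt and RSEM 1.2.3 on GRCm38; for annotation, strand setting and normalization tool the entry is: not given in the sources used here. RPM was recovered by taking each library's lowest value as 0 reads.

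Symbols, coordinates and exonic lengths came from GENCODE vM21. Genes reaching 1 RPM in 2 libraries were fitted (limma 3.58.1, R 4.3.3; eBayes with trend, 4 residual and 4.22 prior degrees of freedom), all 8 libraries in 1 model of 4 groups by title, two-sided, adjusted by Benjamini-Hochberg over 12441 genes, and tested on simulated data. Python 3.11.15, pandas 2.3.3, numpy 2.4.6 and matplotlib 3.10.9 made tables and figures. The 46 members and the lists of other genes were chosen with earlier results of these data known. Per-library values are given for the members with the lowest adjusted p in each role and comparison and for those that stand apart from their role. Other pathway genes are named for up to 3 called genes with the lowest adjusted p per list, and Xbp1, Atf4 and Ddit3; some that met the rule are not described. Alternatives covered pseudocounts, filters, scaling, groups from descriptions, the 6 undisputed libraries, blocks, number series of the titles, groups fitted alone, eBayes settings, a threshold of 0.01 and each library left out.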

Additional observations from a re-analysis of the deposited data

Results flagged for a closer look

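In 5 members the effect of losing Max differed from that of losing Myc, as tested by limma on Max_KO minus Myc_KO. These are 10.9% of the members, beside 4.13% of all genes, and 0 of the 5 calls held under every alternative tried. The log2 differences were 2.39 for Derl3, 0.65 for Dnajb9, -0.64 for Creld2, -0.94 for Sec24d and -0.50 for Lman1. In 1 member, Derl3, the double knock-out differed from Myc_KO, by 1.78. That is 2.17% of the members, beside 0.458% of all genes, and the call did not hold under every alternative.

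In 18 members the change in double_KO differed from the sum of the changes in Myc_KO and Max_KO, as tested by the interaction term in limma. These are 39.1% of the members, beside 27.4% of all genes, and 2 of the 18 calls held under every alternative. With the same-total scaling 12 of the 46 members were called, beside 3640 of the 12441 genes. The values below are those of the deposited scaling. The term was 2.16 for Ero1l, 1.28 for Sec61g, 0.99 for P4hb, 0.97 for Ssr4, 0.93 for Sdf2l1, 0.91 for Creld2, 0.89 for Sec61b, 0.84 for Pdia6 and 0.78 for Derl3. It was 0.63 for Manf, 0.55 for Herpud1, 0.50 for Ostc, 0.50 for Hyou1, 0.49 for Ssr3, 0.48 for Ddost and 0.46 for Sec61a1. It was negative for Eif2ak3 at -0.85 and Dnajb9 at -0.70.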

How the results depend on the processing

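No called member changed direction in a comparison of 2 groups under any alternative. Calls that held under each of them numbered 6 of 19 in Myc_KO, 10 of 23 in Max_KO and 8 of 14 in double_KO. They numbered 0 of 5 for Max_KO against Myc_KO, 0 of 1 for double_KO against Myc_KO and 2 of 18 in the interaction. The interaction of Derl3 turned to -0.87 with groups from the descriptions, with or without a replicate block. With a library left out, calls numbered 8 to 19 in Myc_KO, 12 to 26 in Max_KO, 8 to 15 in double_KO, 1 to 4 for Max_KO against Myc_KO, 0 to 1 for double_KO against Myc_KO and 6 to 18 in the interaction; a lone library was assumed to vary like the other groups. At a threshold of 0.01 there were 9, 14 and 9 against control, 1 for Max_KO against Myc_KO and 6 in the interaction. Without a mean-variance trend there were 12 in Myc_KO, 1 for Max_KO against Myc_KO, 0 for double_KO against Myc_KO and 10 in the interaction. Groups from the descriptions gave 0 for both comparisons with Myc_KO, also with a replicate block, and 2 for double_KO against Max_KO (3 with the block). The 6 undisputed libraries, or only the groups compared, gave 1 for Max_KO against Myc_KO. The 30s numbers of the titles alone gave 22 in double_KO (9 higher and 13 lower, against 8 and 6 with all libraries) and 2 for double_KO against Max_KO; with the series of title numbers as a term, 10 differed between Max_KO and Myc_KO and 2 between double_KO and Max_KO. With groups by title and the replicate numbers of the descriptions as a replicate block, which give both double_KO libraries 1 number and both Myc_KO libraries the other and so overlap with the groups, there were 1 for Max_KO against Myc_KO, 0 for double_KO against Myc_KO and 2 in the interaction, where 5 rather than 2 calls held under the alternatives other than this block. With groups and numbers both from the descriptions, deviations of same-numbered libraries correlated at -0.11 to 0.26, so those numbers were not taken to pair the libraries. The cause of these shifts was not tested. The groups have 2 libraries each and 4 residual degrees of freedom; the lowest member had 201 reads.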
